A study of Dunaliella tertiolecta with 6 samples.

Results

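Carbonic anhydrases interconvert CO2 and bicarbonate. The genes described here are the 7 that the deposited annotation of the green alga Dunaliella tertiolecta names CAH or CAG followed by a number and at most 1 letter, out of 14354 gene identifiers in the expression table. They were chosen by name alone and are CAH1, CAH4, CAG1, CAG2, CAG3 and a pair of genes that both carry the name CAH3. Poly(A)-selected RNA of wild-type vegetative cells of strain UTEX LB 999 was sequenced from shaken liquid cultures kept in constant light with 2 M NaCl. There were 3 libraries with 0 µM added iron and 3 with 1.5 µM added iron, each level as triplicate flasks, and all 6 shared the salt and light. The labels give a time of 2 d, but their growth protocol names 3 days.

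In algae carbonic anhydrases feed a carbon concentrating mechanism: bicarbonate is pumped inward and dehydrated to CO2 next to Rubisco, the CO2-fixing enzyme. The names follow the model alga Chlamydomonas reinhardtii. There CAH1 is an alpha-type enzyme of the periplasm, CAH3 an alpha-type enzyme of the thylakoid lumen and CAH4 a beta-type enzyme of mitochondria, whereas the CAG proteins are gamma-type relatives built into complex I of the mitochondrial respiratory chain. In the related Dunaliella salina a plasma membrane carbonic anhydrase that stays active at high salt is well known. The annotation gives names only, so the enzyme class and the place in the cell of these 7 proteins were not tested.

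Values are FPKM, which divides the fragments of a gene by its length and by the mapped reads of its library. Genes of different length can thus be set side by side, but only approximately here. The column sums were 808592 to 898151 FPKM without iron, against 982304 to 1021467 FPKM with iron. Read totals were not used here. The lowest values lie at regular steps, and taking each step as 1 read puts at least 440 reads behind every carbonic anhydrase value. That number is rough, because the coding length behind the steps differed between libraries by 0 or 205 nt. Such a difference weighs more on short genes, so levels, shares and ratios across genes are approximate too. The 205 nt applied to replicates 1 and 3 at 0 µM and to replicate 3 at 1.5 µM. Changes between the levels may therefore carry this limit as well, most of all for short genes. As a check of the labels, FLD1 for flavodoxin, which is known to answer to low iron, averaged 9695 ± 875 FPKM at 0 µM and 12.6 ± 2.46 FPKM at 1.5 µM (SD, n = 3 each). FOX1, the multicopper ferroxidase, averaged 848 ± 78.8 FPKM at 0 µM and 4.26 ± 2.86 FPKM at 1.5 µM. RBCS1, LHCB4 and PSAD1, genes of photosynthetic cells, were at 613 FPKM or more in every library.

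Without added iron 5 of the 7 genes fell, none rose and 2 did not pass the test. The 3 strongest falls were those of CAH1, CAH4 and one CAH3, which lie together on scaffold_01 and were at 0.199 to 0.235 of their level with iron. The other CAH3, on scaffold_14, and CAG1 were at 0.570 and 0.510 of their level with iron. CAG2 and CAG3 were at 1.04 and 0.840. A call here means an adjusted p under 0.05 in limma on log2(FPKM + 1) over 11273 genes with a mean of at least 1 FPKM, a filter that all 7 passed. By that rule 18.7% of all tested genes were lower and 11.6% higher, and the median log2 fold change was -0.96 for the 7 genes against -0.03 for all tested genes. The 3 genes of scaffold_01 fell at least 2-fold, as did 3.13% of tested genes. The libraries of the levels did not overlap, with 0 µM lower, for 6 of the 7 genes, against 28.0% of all tested genes.

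CAH1 (Dte_g05191) had 191, 130 and 118 FPKM in replicates 1 to 3 at 0 µM, against 971, 536 and 509 FPKM at 1.5 µM. All libraries without iron lay far below all libraries with it, and replicate 1 was the highest at each level. The log2 fold change was -2.16 (SE 0.27, limma adjusted p = 0.00111). CAH3 of scaffold_01 (Dte_g05195) had 172, 118 and 106 FPKM at 0 µM, against 729, 483 and 473 FPKM at 1.5 µM. Its groups did not overlap either, and replicate 1 was again the highest at each level. It fell by 2.08 on the log2 scale (SE 0.22, limma adjusted p = 0.000463). CAH4 (Dte_g05196) had 130, 90.4 and 74.8 FPKM at 0 µM, against 652, 416 and 412 FPKM at 1.5 µM. With a log2 fold change of -2.32 (SE 0.24, limma adjusted p = 0.000399) it had the largest change of the 7 genes, beyond that of 99.2% of tested genes.

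CAH3 of scaffold_14 (Dte_g04553) had 186, 147 and 136 FPKM at 0 µM, against 345, 229 and 249 FPKM at 1.5 µM. The levels did not overlap, and replicate 1 was again the highest at each level. It fell by 0.80 on the log2 scale (SE 0.17, limma adjusted p = 0.0125). With replicates 1 and 2 only, that call was lost (limma adjusted p = 0.0879) at a log2 fold change of -0.76.

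Among the CAG genes, CAG1 (Dte_g06809) had 55.4, 54.8 and 49.9 FPKM at 0 µM, against 99.3, 107 and 108 FPKM at 1.5 µM. Its replicates were tight and its groups far apart (log2 fold change -0.96, SE 0.07, limma adjusted p = 8.5e-05). CAG2 (Dte_g00718) had 67.0, 75.1 and 68.5 FPKM at 0 µM, against 64.3, 72.0 and 66.3 FPKM at 1.5 µM. The groups overlapped, and the 95% interval of its log2 fold change of 0.06 ran from -0.13 to 0.24 (limma adjusted p = 0.626). CAG3 (Dte_g12598) had 74.1, 83.5 and 70.6 FPKM at 0 µM, against 88.8, 93.9 and 89.0 FPKM at 1.5 µM. The groups did not overlap, yet its log2 fold change of -0.25 (SE 0.08) just missed the threshold (limma adjusted p = 0.0516), and with the replicate number as a block it passed (limma adjusted p = 0.0307).

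**Figure D1:**
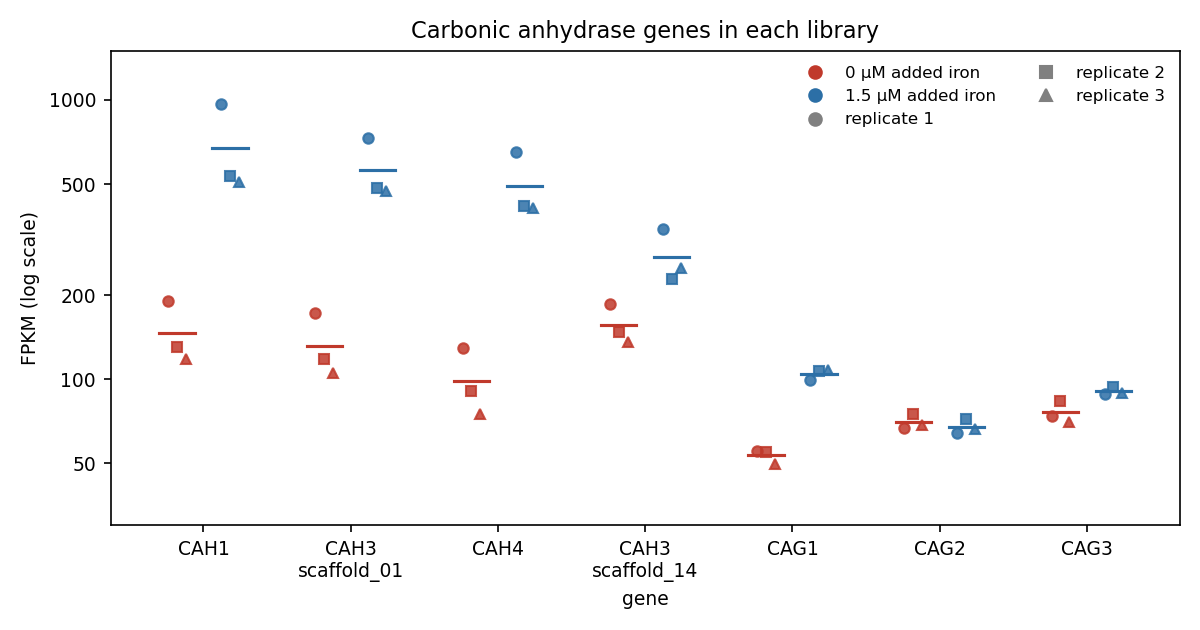
FPKM of the 7 carbonic anhydrase genes on a log axis, 1 point per library, with the mean of the 3 libraries of each iron level as a bar. The 3 genes of scaffold_01 lie between 74.8 and 191 FPKM at 0 µM and between 412 and 971 FPKM at 1.5 µM, while CAG2 overlaps between the levels.

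**Figure D2:**
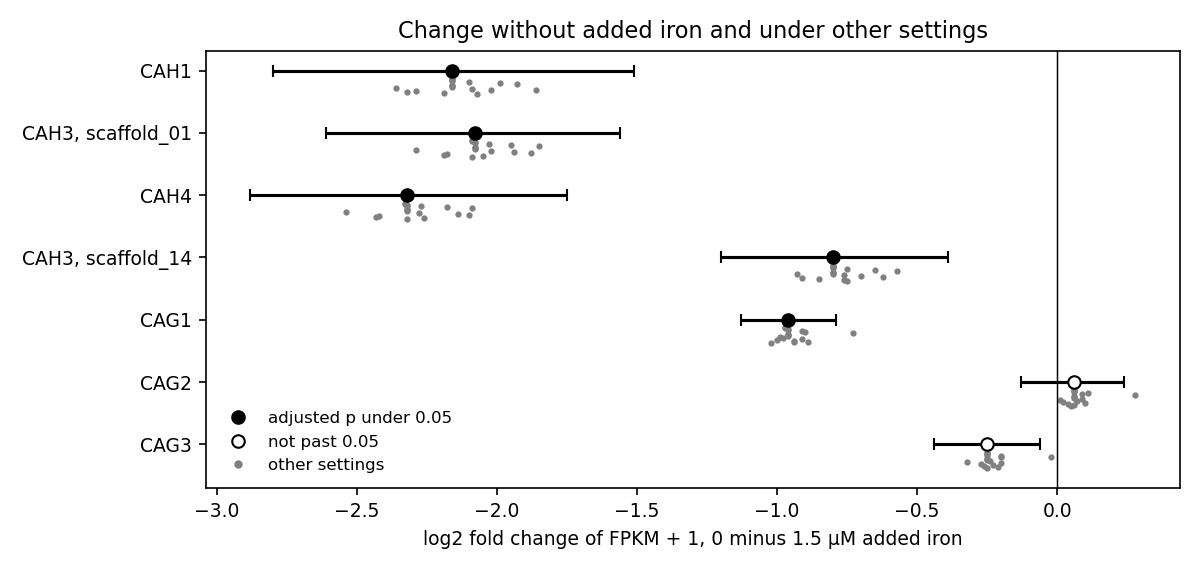
Log2 fold change of FPKM + 1, 0 minus 1.5 µM added iron, with its 95% interval from limma (filled where the adjusted p is under 0.05) and grey points for the 18 other settings of the fit. The genes of scaffold_01 stay between -1.85 and -2.54 under every setting drawn, and the setting that lies apart for CAG1, CAG2 and CAG3 sets the FPKM sums equal.

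Equal FPKM sums moved the median of all tested genes to 0.17 on the log2 scale, against -0.03 as deposited. Under that scaling CAG2 was called higher, by 0.28 (limma adjusted p = 0.0174), CAG3 was at -0.02, and the 5 genes that fell were still called lower, where 9.63% of all tested genes were. In a bulk culture fewer cells with a transcript and less transcript per cell cannot be told apart.

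With iron the 4 CAH genes were among the more abundant transcripts. CAH1, CAH3 of scaffold_01 and CAH4 averaged 672 ± 259, 562 ± 145 and 493 ± 138 FPKM at 1.5 µM (SD, n = 3), above 98.3%, 98.2% and 98.0% of tested genes. CAH3 of scaffold_14 followed at 275 ± 61.6 FPKM, then CAG1 at 105 ± 4.59, CAG3 at 90.6 ± 2.90 and CAG2 at 67.5 ± 3.98 FPKM. The 3 genes of scaffold_01 overlapped in range with their neighbours in this order, although CAH1 was above CAH3 and CAH3 above CAH4 in all 3 libraries. From CAH4 downward, no neighbours in the order overlapped.

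At 0 µM the order was another one. CAH3 of scaffold_14 was highest at 156 ± 25.8 FPKM, followed by CAH1 at 146 ± 38.9, CAH3 of scaffold_01 at 132 ± 35.5, CAH4 at 98.3 ± 28.3, CAG3 at 76.1 ± 6.70, CAG2 at 70.2 ± 4.31 and CAG1 at 53.4 ± 3.05 FPKM (SD, n = 3). CAH3 of scaffold_14 exceeded CAH1 in 2 of 3 libraries only, and apart from CAG2 and CAG1 all neighbours in this order overlapped. The FPKM of the 4 CAH genes together came to 679, 486 and 435 in the libraries without iron, against 2696, 1665 and 1644 with iron. That sum was 0.0624 ± 0.0146% of all FPKM at 0 µM and 0.2 ± 0.0605% at 1.5 µM. For the 3 CAG genes the sums were 197, 213 and 189 FPKM at 0 µM, against 252, 273 and 263 FPKM at 1.5 µM. The 3 genes of scaffold_01 held 50.9 ± 4.7% of the FPKM of all 7 genes at 0 µM and 75.7 ± 3.6% at 1.5 µM, whereas CAH3 of scaffold_14 held 21.4 ± 0.41% at 0 µM and 12.2 ± 0.76% at 1.5 µM.

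On the authors' assembly CAH1 spans scaffold_01 from 5759242 to 5764109 on the minus strand, with 8 coding exons and 1968 nt of coding sequence. CAH3 spans 5832425 to 5840898, also on the minus strand, with 6 coding exons and 1032 nt. CAH4 spans 5841084 to 5846787 on the plus strand, with 9 coding exons and 1509 nt. The 3 genes thus fit into 87546 nt, and CAH3 and CAH4 point away from each other across 185 nt between their coding starts. Between CAH1 and CAH3 lie 3 gene models with almost no FPKM, 1 with a mean of 0.381 FPKM at 0 µM and 0.248 FPKM at 1.5 µM and 2 listed at 0 in all libraries.

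The genes around the cluster were far less abundant. The unnamed Dte_g05190, next to CAH1, averaged 10.5 ± 0.773 FPKM at 0 µM and 14.7 ± 0.650 FPKM at 1.5 µM (SD, n = 3) and fell by 0.46 (limma adjusted p = 0.00637). The next gene past CAH4, Dte_g05197, averaged 5.05 ± 0.172 FPKM at 0 µM and 5.98 ± 0.957 FPKM at 1.5 µM and did not pass (log2 fold change -0.20, limma adjusted p = 0.236). EFG11 (-0.07), COG3 (0.06) and Dte_g05199 (-0.28) of the same stretch did not pass either. In the whole annotation 2086 head-to-head gene pairs at most 500 nt apart had both genes tested. Both genes fell in 4.89% of them, against 4.44% of 9203 neighbouring pairs of any orientation. Both genes fell at least 2-fold in 6 head-to-head pairs (0.288%), of which CAH3 and CAH4 are 1, and in 0.424% of all neighbouring pairs.

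**Figure D3:**
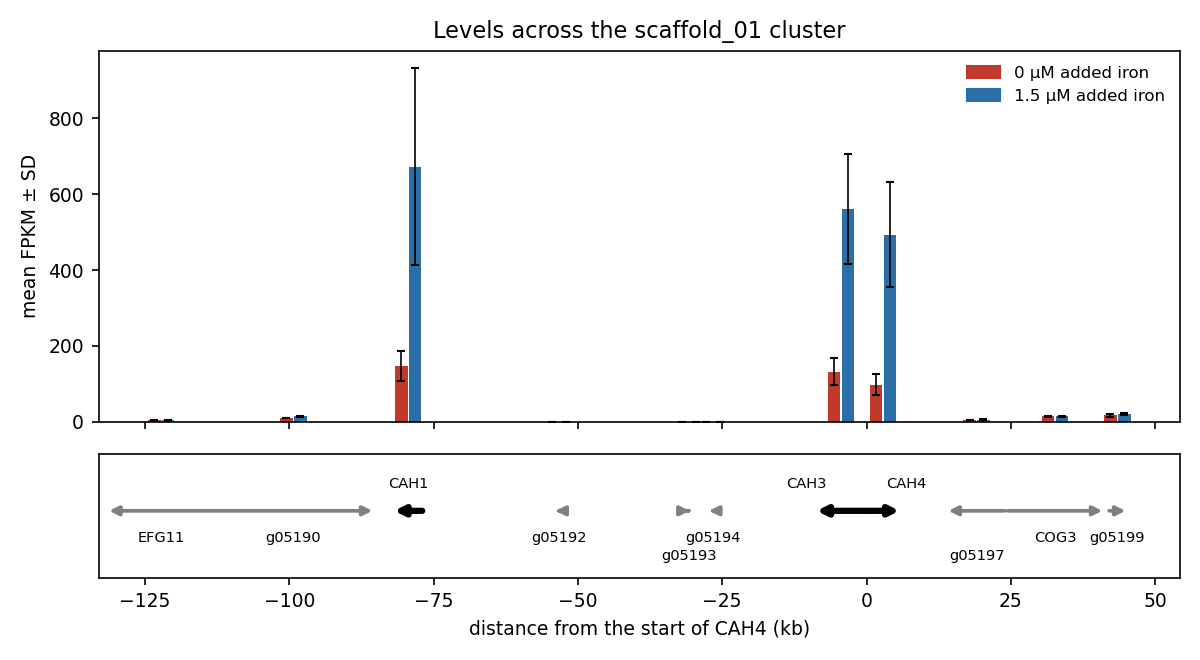
Mean FPKM ± SD (n = 3 libraries) of each gene along scaffold_01 around the cluster, against the distance from the start of CAH4 in kb, with gene models and their direction as arrows below. CAH1, CAH3 and CAH4 stand out from 8 flanking and intervening genes, all of which average under 22 FPKM.

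The other genes lie apart. CAH3 of scaffold_14 spans 2391042 to 2393861 on the minus strand, with 8 coding exons and 1068 nt of coding sequence. CAG1 lies on scaffold_02 from 6850982 to 6852776 (plus strand, 5 coding exons, 690 nt), CAG2 on scaffold_03 from 8830932 to 8835110 (minus strand, 7 coding exons, 873 nt) and CAG3 on scaffold_04 from 8244742 to 8250801 (minus strand, 8 coding exons, 930 nt). None of the 7 genes had the same 6 values as any other gene. How alike the copies are in sequence, and whether reads could be assigned to more than 1 of them, was not tested. The split of FPKM within the scaffold_01 cluster, between the genes named CAH3 and among the CAG genes is therefore uncertain.

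Ratios within a library show where the genes part. CAH3 of scaffold_01 had 0.929, 0.801 and 0.775 times the FPKM of CAH3 of scaffold_14 at 0 µM, against 2.11, 2.11 and 1.90 times at 1.5 µM. In FPKM the genes that share a name thus changed places: the scaffold_14 gene was higher in every library without iron and the scaffold_01 gene in every library with it. Their ranges at 0 µM overlapped, however, and whether they share reads was not tested. The log2 ratio differed by -1.29 between the levels (0 minus 1.5 µM), and the two-sided exact permutation test gave p = 0.1, the smallest that 3 against 3 libraries allow (adjusted p = 0.14 over the 7 pairs compared). The other 6 pairs were chosen after the values were seen.

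Within the scaffold_01 cluster the ratios moved little. CAH1 had 1.1 to 1.12 times the FPKM of CAH3 at 0 µM, against 1.08 to 1.33 times at 1.5 µM, with overlapping libraries (difference in log2 ratio -0.07, exact permutation p = 0.8). CAH4 had 0.708 to 0.766 times the FPKM of CAH3 at 0 µM, against 0.861 to 0.895 times at 1.5 µM, without overlap (difference -0.24, exact permutation p = 0.1). CAH4 over CAH1 overlapped between the levels (difference -0.17, exact permutation p = 0.3). Among the CAG genes, CAG1 had 0.728 to 0.828 times the FPKM of CAG2 at 0 µM, against 1.48 to 1.62 times at 1.5 µM. That was the largest shift among the CAG ratios (difference -1.03, exact permutation p = 0.1). CAG1 over CAG3 (-0.72) and CAG3 over CAG2 (-0.31) did not overlap between the levels either (exact permutation p = 0.1 for each). Every ratio with an exact permutation p = 0.1 had an adjusted p of 0.14 over the 7 pairs.

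**Figure D4:**
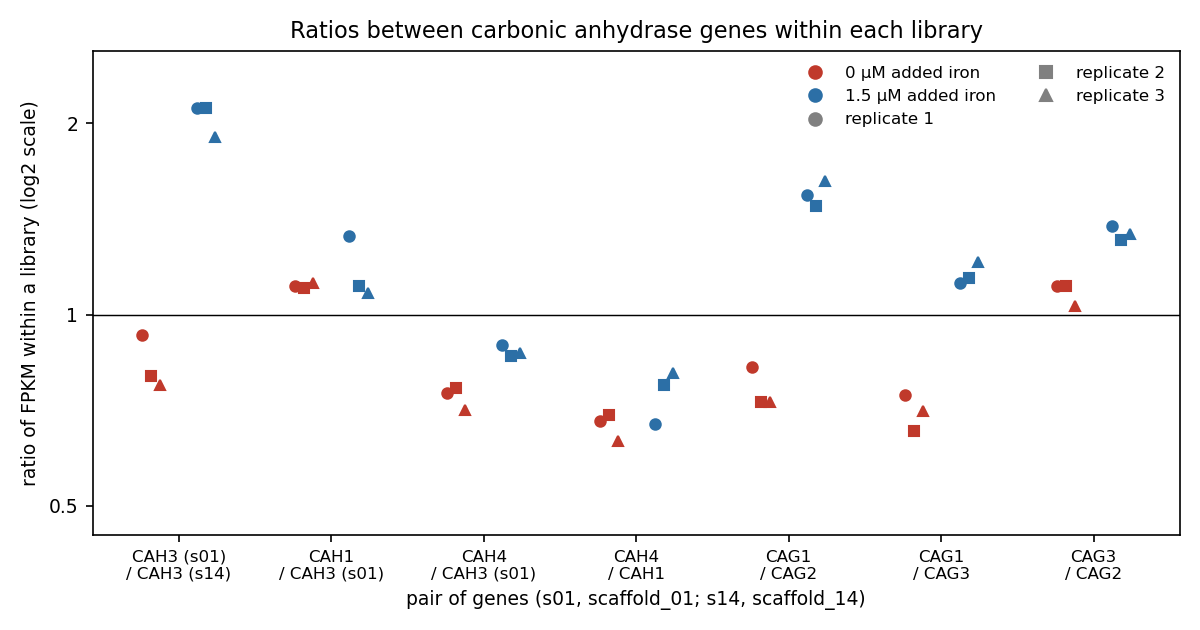
Ratio of the FPKM of 2 carbonic anhydrase genes within each library on a log2 axis, 0 µM added iron left and 1.5 µM right in each pair. The ratio of the genes named CAH3 lies below 1 in all libraries without iron and near 2 in those with iron, while CAH1 over CAH3 of scaffold_01 overlaps between the levels.

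The CAH genes also varied between flasks of 1 iron level more than most genes. Their residual SD on the log2 scale was 0.45 for CAH1, 0.36 for CAH3 of scaffold_01, 0.39 for CAH4 and 0.27 for CAH3 of scaffold_14, above that of at least 87.8% of tested genes and, for CAH1, of 96.3%. For CAG1, CAG2 and CAG3 it was 0.07, 0.08 and 0.09. The spread was shared, because replicate 1 was the highest library of all 4 CAH genes at both levels. CAH1 was 1.54 times higher in replicate 1 than the mean of replicates 2 and 3 at 0 µM and 1.86 times at 1.5 µM. The same ratio was 1.54 at 0 µM and 1.52 at 1.5 µM for CAH3 of scaffold_01, 1.57 at 0 µM and 1.58 at 1.5 µM for CAH4, and 1.31 at 0 µM and 1.44 at 1.5 µM for CAH3 of scaffold_14. For the CAG genes it lay between 0.926 and 1.06.

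Such a shared excess was rare. Of the 11273 tested genes 55 (0.488%) were at least 1.5 times higher in replicate 1 at both levels, a threshold set after the values were seen, and the 3 genes of the scaffold_01 cluster were among them. Of 1699 genes that averaged at least 50 FPKM, 11 met it. Apart from the cluster, the named ones were LCI11 and BST2, whose Chlamydomonas namesakes are bestrophin-like channels, and the plastome gene psbC. Of the 22 tested genes listed for inorganic carbon transport and concentration, 4 met it whatever their mean FPKM (18.2%). They were LCI11, BST2, NAR1C and CIA6. The last of these have low values. NAR1C averaged 8.94 ± 3.12 FPKM at 0 µM and 12.9 ± 4.66 FPKM at 1.5 µM, and CIA6 3.31 ± 1.13 and 3.34 ± 1.57 FPKM (SD). LCI11 had 124, 66.8 and 58.55 FPKM at 0 µM, against 311.5, 111 and 129 FPKM at 1.5 µM. BST2 had 82.3, 51.6 and 46.2 FPKM at 0 µM, against 179, 87.0 and 88.5 FPKM at 1.5 µM. As for the CAH genes, replicate 1 stood highest at each level. What differed in the replicate 1 cultures was not tested.

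Ratios between libraries of the same number varied less than the groups did. CAH1 was at 0.197, 0.243 and 0.232 of its level with iron in replicates 1, 2 and 3, CAH3 of scaffold_01 at 0.237, 0.244 and 0.223, and CAH4 at 0.199, 0.217 and 0.182. With the replicate number as a block the SE of these log2 fold changes was 0.08, 0.06 and 0.07, against 0.27, 0.22 and 0.24 without it. Such pairs rest on these same data and not on the labels. The genes had been seen to share the excess of replicate 1, so the smaller SE is not separate evidence.

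**Figure D5:**
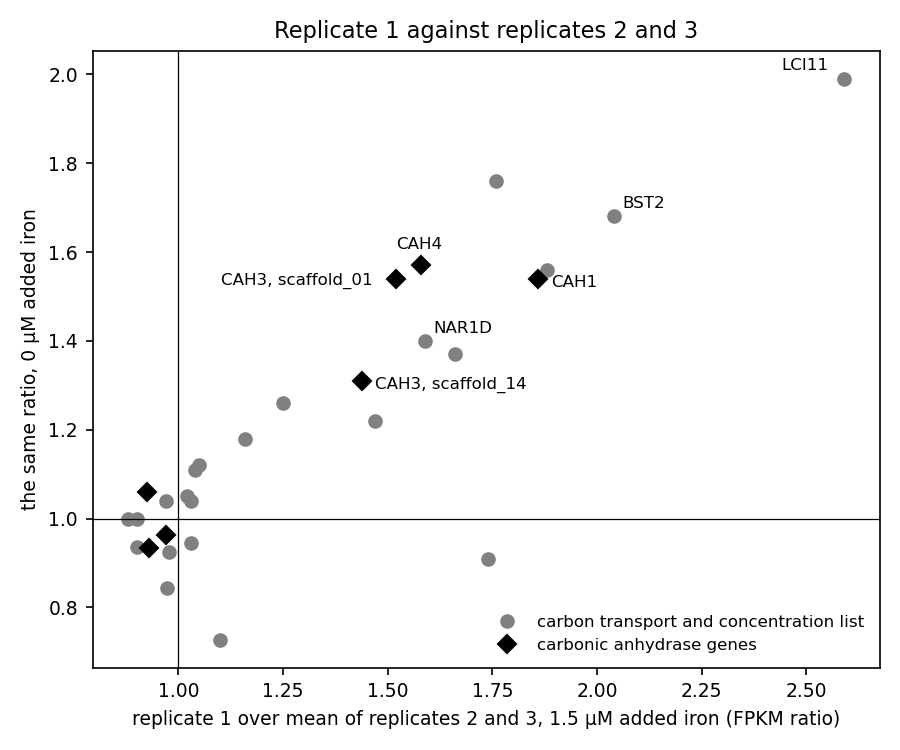
FPKM of replicate 1 over the mean of replicates 2 and 3 at 1.5 µM (x axis) and at 0 µM added iron (y axis), 1 point per gene. Points are the carbonic anhydrase genes and 22 genes listed for inorganic carbon transport and concentration. The 4 CAH genes lie at or above 1.31 on both axes, as do LCI11, BST2, NAR1C, NAR1D, LCI10 and CIA6, and the 3 CAG genes lie near 1.

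The genes whose profile over the 6 libraries was nearest to that of CAH4 were its neighbours. Of 3341 other named genes, CAH1 and CAH3 of scaffold_01 had the smallest root mean square difference in centred log2(FPKM + 1), 0.12 for each. Next came CYC4 at 0.25, FDX11 for a ferredoxin at 0.26 and ZISO1 for a carotenoid isomerase at 0.28. CYC4 averaged 7.76 ± 1.85 FPKM at 0 µM and 45.8 ± 0.923 FPKM at 1.5 µM (SD, n = 3), without the excess of replicate 1 at 1.5 µM. The measure is dominated by the difference between the iron levels, which all 5 genes share.

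Genes listed for inorganic carbon transport and concentration were chosen by their symbols, and whether each of them serves that role was not tested. The list held 23 genes, of which 22 were tested. Of these 5 fell, 2 rose and 15 did not pass, with a median log2 fold change of -0.16 against -0.03 for all tested genes. Over all tested genes 18.7% were lower and 11.6% higher, so the list's counts were near the background. CAS1, for a thylakoid calcium sensor that regulates the mechanism in Chlamydomonas, averaged 235 ± 17.97 FPKM at 0 µM and 496 ± 17.7 FPKM at 1.5 µM and fell by 1.08. LCI10 (-1.10), LCI8 (-0.81), HLA8 (-0.74) and CCM1 (-0.59), the symbol of the master regulator of the mechanism in Chlamydomonas, fell as well. LCI20, whose Chlamydomonas namesake is a chloroplast dicarboxylate translocator, rose by 0.61, and NAR1A, of a family of nitrite and bicarbonate channels, rose by 0.80.

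The replicate block changed the call of 5 genes of that list. BST2 (log2 fold change -0.93, limma adjusted p = 0.0646), LCI11 (-1.06, 0.0996), NAR1D (-0.82, 0.0528), LCI24 (-0.40, 0.0558) and NAR1C (-0.47, 0.241) did not pass without it. With the replicate number as a block these 5 passed as lower (limma adjusted p = 0.000842, 0.0016, 0.0064, 0.00765 and 0.0149), and the list had 10 lower and 2 higher. That block was used on the evidence of these same data and not of the labels. LCI11, BST2 and NAR1C had already been named for their excess in replicate 1, so their calls under the block are not separate evidence. CIA6, which also stood higher in replicate 1 at both levels, did not pass with the block either (log2 fold change 0.02, limma adjusted p = 0.947). The 10 lower of 22 stand in a fit where 21.0% of all tested genes were lower. LCI28B was listed at 0 in every library.

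Rubisco, the enzyme served by concentrated CO2, changed less than the scaffold_01 genes. Of 18 genes listed for Rubisco and its helpers 11 fell, none rose and 7 did not pass. Their median log2 fold change was -0.33, where 18.7% of all tested genes were lower and 11.6% higher. The list includes CPN genes for chaperonins, which need not serve Rubisco alone. Of these CPN20, CPN60A, CPN60B and CPN60D fell, and CPN10, CPN11, CPN23 and CPN60C did not pass. The small subunit genes RBCS1 and RBCS2 averaged 6165 ± 327 and 2026 ± 121 FPKM at 0 µM, against 9341 ± 652 and 3596 ± 372 FPKM at 1.5 µM (SD, n = 3). They fell by 0.60 and 0.82. RCA1 for Rubisco activase fell by 0.66, and CGE1, a co-chaperone, by 0.58. The plastome gene rbcL averaged 10.1 ± 3.79 FPKM at 0 µM and 13.7 ± 4.31 FPKM at 1.5 µM, in poly(A)-selected RNA that need not reflect plastid transcripts, and did not pass. Of 17 genes of photorespiration, the salvage of the product of Rubisco's reaction with oxygen, 8 fell and 1 rose (median -0.24), against the same background. GCST1 (-0.83), AGT1 (-0.80), SHMT1 (-0.69) and HPR1 (-0.67) had the smallest p. Under equal FPKM sums 4 of the Rubisco list and 5 of the photorespiration list were lower, with 3 and 6 higher, where 9.63% of all tested genes were lower and 28.3% higher.

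Complex I is where CAG proteins sit in Chlamydomonas. Of 39 genes for its subunits, a list cleaned after the names were seen, 16 fell and 1 rose, with a median log2 fold change of -0.08, where 18.7% of all tested genes were lower and 11.6% higher. The 16 include nad2 and nad6, which are not nuclear and averaged at most 3.81 and 4.59 FPKM at either level. Poly(A)-selected RNA need not reflect such transcripts. Of the 34 nuclear subunit genes 14 fell and 1 rose. They ran from -1.19 to 0.35 with a median of 0.01, and CAG1 at -0.96 was lower than all but 2 of them, NUOS1 (-1.19) and NUO7 (-0.99). NUOS1, an iron-sulfur subunit, averaged 22.6 ± 2.25 FPKM at 0 µM and 52.7 ± 1.88 FPKM at 1.5 µM, and NUO7 averaged 64.5 ± 1.60 FPKM at 0 µM and 129 ± 2.90 FPKM at 1.5 µM (SD, n = 3). CAG2 and CAG3 lay in the middle, with 18 and 14 of the 34 subunits below them in log2 fold change. The CAG transcripts were on the low side of the complex at both levels. At 0 µM 32 of the 34 subunits had a higher FPKM than CAG1, 30 than CAG2 and 29 than CAG3, and at 1.5 µM the numbers were 28, 33 and 31. The uncleaned list of 50 genes, which also held other NADH dehydrogenases and assembly factors, had 18 lower and 2 higher (median -0.05), with the assembly factor genes NUOAF4 (-1.94) and NDUFAF3 (-1.87) lowest. With equal FPKM sums 10 of the 39 subunit genes were lower and 16 higher, where 9.63% of all tested genes were lower and 28.3% higher.

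Alpha and beta carbonic anhydrases carry zinc. Of 22 genes named for zinc or related metal transport 6 rose and 4 fell (median -0.10), where 11.6% of all tested genes were higher and 18.7% lower. ZCP2A and ZCP2C of that list, neither of them called, had equal means and SDs at each level. IRT1A averaged 215 ± 2.55 FPKM at 0 µM and 25.3 ± 10.5 FPKM at 1.5 µM (SD, n = 3), and IRT1A (3.10), IRT1B (2.54) and MTP2 (1.48) rose, whereas ZIP9 fell by 1.13. IRT genes are also known as iron transporters. Of 9 tested genes named for enzymes of C4 acid metabolism, 3 fell and 2 rose (median -0.01), beside those shares of all tested genes. With equal FPKM sums 8 genes of the zinc list were higher and 2 lower, and 3 of the C4 list were higher and 1 lower. In that fit 28.3% of all tested genes were higher and 9.63% lower. PPD1, named for pyruvate phosphate dikinase, which makes phosphoenolpyruvate from pyruvate, averaged 15.3 ± 0.112 FPKM at 0 µM and 134 ± 44.0 FPKM at 1.5 µM and fell by 2.99, PEPC2 for phosphoenolpyruvate carboxylase fell by 0.45 and PYC1 for pyruvate carboxylase by 0.42, while MME2, named for malic enzyme, rose by 0.38.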

How the data were processed

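The authors deposited 1 FPKM value per gene and library. Per the design text in the labels, single-end reads of 50 nt were aligned to an assembly of their own. STAR 2.4.0j and Cuffdiff 2.0.2 are listed in the submitters' processing notes. Gene names and coordinates come from the deposited annotation, whose models hold coding sequence (98.5% of nuclear coding lengths are multiples of 3). Of 14354 identifiers 3449 had a name. No sequences were used here.

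FPKM are not counts, so log2(FPKM + 1) of genes with a mean of at least 1 FPKM was tested in limma 3.58.1 (R 4.3.3; lmFit, eBayes with trend), two-sided, with Benjamini-Hochberg adjustment over 11273 genes. The procedure was tested on simulated data. Ratios within libraries were compared by exact permutation (scipy 1.17.1), and figures were drawn with matplotlib 3.10.9. No source used here says whether each flask had its own preculture, and p-values therefore cover flask-to-flask spread, which may be technical.

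Low FPKM times coding length fell on steps (16.1% to 29.7% of values in the most crowded bin), but the coding length behind them differed between libraries, by 0 or 205 nt, so reads were not recovered, and depths of 10200000 to 20200000 reads are rough. Deviations from the group means correlated at 0.239, 0.262 and 0.168 between libraries of the same number and at -0.22 to -0.014 between others. Deviations within a level sum to 0, so positive values for equal numbers push the others below 0. The negative values are therefore not separate evidence. Equal numbers were treated as pairs in the block fit, on the evidence of these same data and not of the labels.

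The genes and lists were chosen with earlier results of these data known. All 7 carbonic anhydrase genes are named, and of each other list up to 4 genes with the smallest p, RBCS and rbcL, and further members where a list is described. The 5 genes nearest in profile to the gene with the largest change are named too.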

Additional observations from a re-analysis of the deposited data

How the results depend on the processing

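Of the 7 carbonic anhydrase genes, CAH1, CAH3 of scaffold_01, CAH4 and CAG1 kept their direction and call under all 18 alternatives, with log2 fold changes of -2.36 to -1.86, -2.29 to -1.85, -2.54 to -2.09 and -1.02 to -0.73. CAH3 of scaffold_14 (-0.93 to -0.57) lost its call with replicates 1 and 2 only. CAG3 also passed with a filter of 5 FPKM (limma adjusted p = 0.0444), robust eBayes (0.0481), the replicate block (0.0307) and without 0 µM replicate 2 (0.0283), and its adjusted p reached 0.794 with equal FPKM sums. The number of these genes called lower was 4 to 6, and 5 to 6 with 1 library left out, and 1 was called higher with equal FPKM sums. The difference in log2 ratio of CAH1 over CAH3 of scaffold_01, -0.07, ran from -0.13 to 0.02 with 1 library left out, the only change of sign, without 1.5 µM replicate 1.

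Over all genes 1303 were higher and 2105 lower. Equal FPKM sums gave 3189 and 1086, replicates 1 and 2 only 549 and 1136, and replicates 2 and 3 only, chosen after seeing the data, 825 and 1325. With 1 library left out the counts ran from 795 to 1288 and from 1526 to 1910. The other lists held 22 tested genes for carbon transport, 18 for Rubisco, 17 for photorespiration, 9 for C4 acid enzymes and 22 for zinc. Complex I entered with the 50 of its uncleaned list. Of these lists together, 13 genes were higher and 49 lower, where 11.6% of all tested genes were higher and 18.7% lower. Quantile normalization gave 20 higher, equal sums 42 higher and 29 lower, replicates 1 and 2 only 5 and 28, and leaving out 1 library 9 to 15 and 39 to 47. Single lists moved by over 1.5 times as well, for carbon transport between 4 and 10 lower and 1 and 4 higher, for Rubisco 4 to 13 lower and 0 to 3 higher, for photorespiration 5 to 9 and 0 to 6, for complex I subunits 10 to 16 and 0 to 16, for the uncleaned complex I list 12 to 18 and 0 to 18, for zinc 2 to 5 and 4 to 8, and for C4 acid enzymes 1 to 3 and 0 to 3. For every list the most higher calls came with equal FPKM sums, where 28.3% of all tested genes were higher and 9.63% lower. The cause of these moves was not tested.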
